A study of Mus musculus with 3 samples.

Results

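Pax3, Six3, Emx2, Hes3, Nkx2-1, Meis2 and Ebf1 encode transcription factors that mark regions of the developing nervous system, and their levels were followed in mouse rhabdoid tumors. These 7 of the 31053 genes in the count matrices had been chosen by their UMI levels, which differed between the tumors of a single group. The differences between tumors are therefore given as a description, with no test. The question asked of the data was whether each difference was present in all cell states of a tumor or in one of them.

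The study ran single-cell RNA sequencing on 3 fresh basal ganglia tumors of the R26-SHH group, each from a different mouse. The mice were Rosa26-CreERT2::Smarcb1flox/flox on a mixed background and had received tamoxifen at embryonic day 6, so that a Cre recombinase active in all tissues removed Smarcb1, whose product is a core part of the SWI/SNF chromatin remodeler. The tumors R26P26, R26P27 and R26P87 came from mice aged 26, 27 and 87 days, and the sex of the animals was not given in the sources used here. There was no control tissue, the cells were not sorted, and with 1 tumor per mouse the age, the animal and the library of a tumor cannot be told apart.

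The developing neural tube is divided along its length and from back to belly by transcription factors that are each expressed in some territories and kept out of others. Pax3 belongs to the dorsal neural tube and the neural crest, Six3 to the most anterior forebrain and the eye field, Emx2 to the dorsal telencephalon, and Hes3 to progenitors around the midbrain-hindbrain boundary. Nkx2-1 marks the hypothalamus and the medial ganglionic eminence, whereas Meis2 and Ebf1 are known from the lateral ganglionic eminence and its striatal neurons.

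The 3 matrices held 12467, 9485 and 6428 barcodes with 79529921, 40151353 and 67645602 UMIs (unique molecular identifiers, each standing for 1 captured transcript), of which 8861, 7196 and 4854 cells were kept. Cells with Sox2 and neither Sox9 nor Stmn2 were called Sox2+ (2555, 1182 and 1159 cells), cells with Sox9 and no Stmn2 were called Sox9+ (2026, 1402 and 1511), and cells with Stmn2 and neither Sox2 nor Sox9 were called Stmn2+ (268, 549 and 66). Sox2 and Sox9 are genes of neural stem and progenitor cells and Stmn2 is a gene of young neurons. The Stmn2+ cells were shallow, with medians of 2470.5, 1618 and 1606.5 UMIs against 5000 to 18727 in the other states. Immune cells, recognized by at least 3 of 11 markers, numbered 971, 706 and 259 (medians 2918, 5511.5 and 2262 UMIs) and served as the background that free RNA leaves in cells of another type. Smarcb1 was found at 0.517 to 1.73 CPM (UMIs of a gene per 1000000 UMIs of the summed cells) in the Sox2+ and Sox9+ cells and at 36.5 to 81.3 in endothelial and mural cells of the tumors, so the states hold cells with little Smarcb1 RNA. Xist, transcribed from the inactive X chromosome, stood at 2015 to 3206 CPM in the sets of cells made below from R26P26 and R26P87 and at 0 to 2.09 in those from R26P27, and its relation to the levels of the 7 genes was not tested. Pairs of libraries shared 22 to 42 barcodes. In Sox9+ and Stmn2+ cells of R26P27 the 6 choroid plexus markers summed to 3988 and 1925 CPM, against 0 to 86.3 in the other tumors, and in Stmn2+ cells of R26P27 the 5 red blood cell markers summed to 3629, against 0 and 10.5. Their part in the levels below was not tested.

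All levels below are CPM over the cells of a state in a tumor. Shares of cells are given after each cell was thinned to 2000 UMIs, so that depth does not set them, and intervals are exact at 95% and cover counting error only. The position of each gene is that of the GENCODE M21 annotation of GRCm38.

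Pax3, at chr1:78101267-78197134 on the minus strand, had its highest level in R26P87. In Sox2+ cells it stood at 19.2 in R26P26, 39.7 in R26P27 and 403 in R26P87, and in Sox9+ cells at 11.4, 41.8 and 767. In Stmn2+ cells the levels were 2.63 (3 UMIs), 11.4 and 206. R26P87 was thus the high tumor in each state, and R26P26 the low one. Relative to R26P26, the level in R26P87 was 21.04-fold higher in Sox2+ cells (interval 19.2 to 23.1), 67.1-fold higher in Sox9+ cells (58.8 to 77.0) and 78.5-fold higher in Stmn2+ cells (26.1 to 387). At 2000 UMIs per cell, Pax3 was seen in 39.0% of Sox2+, 67.5% of Sox9+ and 38.7% of Stmn2+ cells of R26P87 (unthinned 55.7, 83.3 and 34.8%). In R26P26 the shares were 1.99, 1.43 and 0%, and in R26P27 they were 4.97, 4.22 and 0.474%. The immune cells of R26P87 also carried Pax3 UMIs, at 57.6 CPM and in 10.6% of cells, against none in R26P26 and 2.03 CPM in R26P27. Against that background the states of R26P87 stood 6.996-fold (Sox2+), 13.3-fold (Sox9+) and 3.58-fold (Stmn2+, 2.71 to 4.71) higher.

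Six3, at chr17:85613608-85629302 on the plus strand, followed the same order of tumors. Its levels were 8.10, 14.4 and 105 in Sox2+ cells of R26P26, R26P27 and R26P87, 11.5, 19.2 and 171 in Sox9+ cells, and 2.63, 10.7 and 77.0 in Stmn2+ cells. The step from R26P26 to R26P87 was 13.0-fold in Sox2+ (11.3 to 15.0), 14.9-fold in Sox9+ (13.0 to 17.1) and 29.3-fold in Stmn2+ cells (9.29 to 149), the last resting on 3 UMIs in R26P26 that were not distinguishable from the background of its immune cells. At equal depth 14.5% of Sox2+, 22.5% of Sox9+ and 16.1% of Stmn2+ cells of R26P87 held a Six3 UMI, and 0 to 2.91% of the same states in the other tumors. In immune cells the level was 0.712, 0.759 and 4.40, and the intervals of the ratio to them lay above equality in each state but the Stmn2+ cells of R26P26, where 3 UMIs against 4 gave a ratio of 3.69 (0.541 to 21.8).

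Emx2, at chr19:59458372-59465357 on the plus strand, showed the same ranking of the tumors. Sox2+ cells held 2.07, 7.38 and 38.7 CPM, Sox9+ cells 2.07, 7.83 and 73.1, and Stmn2+ cells 6.13, 9.39 and 45.8. R26P87 exceeded R26P26 by 18.7-fold (14.2 to 25.1), 35.3-fold (25.8 to 49.6) and 7.48-fold (3.08 to 20.7) in these states. The last value rests on 22 UMIs in R26P87 and 7 in R26P26, and its interval does not cover the spread between cells. R26P27 was in the middle in each of them, 3.56-fold above R26P26 in Sox2+ (2.44 to 5.21) and 3.78-fold in Sox9+ cells (2.54 to 5.71), whereas in Stmn2+ cells the interval of that ratio, 0.579 to 4.49, included equality. The immune cells of R26P87 held Emx2 at 7.82 CPM, and the Stmn2+ cells of that tumor were 5.86-fold above them (2.94 to 11.9). Genes on the other strand overlap exons of Emx2 (Emx2os) and of Six3 (Gm28528).

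Hes3, a repressor of the Hes family at chr4:152285972-152291662 on the minus strand, was counted only sparsely outside R26P87. Its levels were 1.96, 1.73 and 21.8 in Sox2+ cells and 2.48, 0.214 (2 UMIs) and 30.2 in Sox9+ cells. R26P87 was 11.1-fold above R26P26 in Sox2+ (8.30 to 15.2) and 12.2-fold above it in Sox9+ cells (9.09 to 16.6). In Stmn2+ cells the counts were 0, 0 and 2 UMIs, and the 2 UMIs of R26P87 (4.16 CPM) did not stand above its immune cells (2.93 CPM, ratio 1.42, interval 0.140 to 7.95). A tumor difference in Stmn2+ cells was therefore not detectable for Hes3 at this depth.

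The promoters of 2 of these genes are shown because Six3 and Emx2 shared a tumor pattern, and those of Nkx2-1 and Meis2, described next, stand for the opposite pattern. Each is the stretch from 250 bases before to 50 bases after the gene start from RefSeq on GRCm38.p6, written 5′ to 3′ on the strand of the gene, at chr17:85620584-85620883 (Six3, plus), chr19:59458440-59458739 (Emx2, plus), chr12:56536859-56537158 (Nkx2-1, minus) and chr2:116064570-116064869 (Meis2, minus). Capitals mark every match, on either strand, to 4 cores searched: TAATTA (homeodomain), TGACAG (MEIS), CCCNNGGG (EBF) and CACGTG (E-box).
Six3: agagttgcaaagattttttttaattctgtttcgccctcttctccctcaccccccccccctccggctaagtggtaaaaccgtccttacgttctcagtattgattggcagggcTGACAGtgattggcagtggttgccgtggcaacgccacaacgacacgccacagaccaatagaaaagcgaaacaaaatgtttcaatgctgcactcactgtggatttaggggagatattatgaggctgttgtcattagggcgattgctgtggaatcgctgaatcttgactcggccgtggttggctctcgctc
Emx2: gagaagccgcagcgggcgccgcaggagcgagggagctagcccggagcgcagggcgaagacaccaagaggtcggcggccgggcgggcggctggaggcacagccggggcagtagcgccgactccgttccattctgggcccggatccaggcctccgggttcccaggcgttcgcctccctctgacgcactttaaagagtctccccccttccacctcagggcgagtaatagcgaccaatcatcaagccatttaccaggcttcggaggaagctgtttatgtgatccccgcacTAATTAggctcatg
Nkx2-1: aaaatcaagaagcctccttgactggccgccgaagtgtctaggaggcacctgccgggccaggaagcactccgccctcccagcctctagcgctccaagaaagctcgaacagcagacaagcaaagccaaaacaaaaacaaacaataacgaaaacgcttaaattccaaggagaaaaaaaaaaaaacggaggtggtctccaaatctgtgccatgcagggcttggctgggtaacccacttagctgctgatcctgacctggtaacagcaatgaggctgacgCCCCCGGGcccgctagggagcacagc
Meis2: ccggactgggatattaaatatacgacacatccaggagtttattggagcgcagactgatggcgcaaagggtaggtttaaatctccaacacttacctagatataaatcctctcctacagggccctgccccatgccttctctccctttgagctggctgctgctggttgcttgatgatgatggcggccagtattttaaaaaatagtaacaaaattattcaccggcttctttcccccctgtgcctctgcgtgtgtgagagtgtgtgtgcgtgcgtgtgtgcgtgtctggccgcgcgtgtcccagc
Six3 held 1 TGACAG, Emx2 1 TAATTA and Nkx2-1 1 CCCNNGGG, and Meis2 held none of the 4 cores. Among 32817 promoters of the same length, TAATTA was present in 5.3%, TGACAG in 19.2%, CCCNNGGG in 13.7% and CACGTG in 7.15%. Of the 7 genes, 5 had a promoter entry, with 2 entries for Ebf1 that held none of the cores, and Pax3 and Hes3 were not matched. These matches describe the sequence and were not related to the levels.

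Nkx2-1, at chr12:56531958-56536908 on the minus strand, was low in the tumor in which the preceding genes were high. Its levels in R26P26, R26P27 and R26P87 were 25.6, 33.6 and 1.24 in Sox2+ cells, 16.5, 20.5 and 0.586 in Sox9+ cells, and 23.6, 37.6 and 4.16 (2 UMIs) in Stmn2+ cells. R26P26 and R26P27 lay close together, and R26P87 was far below both in Sox2+ and Sox9+ cells. R26P27 exceeded R26P87 by 27.05-fold (17.8 to 42.9) in Sox2+, 34.9-fold (21.5 to 60.2) in Sox9+ and 9.02-fold (2.38 to 76.3) in Stmn2+ cells. The Sox2+ and Sox9+ levels of R26P87 lay below 1.80, the upper end of the interval for its immune cells, in which no Nkx2-1 UMI was counted, so that over all cells of these states a level above background was not detectable. The 94 cells of R26P87 with Meis2 or Ebf1, described below, held 17 UMIs (9.53 CPM, 5.55 to 15.3). At equal depth no Nkx2-1 UMI was seen in the 84 cells with Meis2 (0 to 4.30%) or the 58 with Ebf1 (0 to 6.16%). The shares in the other cells of R26P87 were 0.316 and 0.312%, so more Nkx2-1 was not shown by share. At 2000 UMIs per cell, a Nkx2-1 UMI was seen in 0.525, 0.152 and 0% of the 3 states of R26P87 and in 2.23 to 7.11% of those of the other tumors.

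Meis2, at chr2:115863064-116065839 on the minus strand, had levels of 183, 162 and 46.7 in Sox2+ cells, 181, 190 and 12.1 in Sox9+ cells and 149, 115 and 93.7 in Stmn2+ cells. By level, the tumor difference was larger in Sox9+ than in Sox2+ cells and smallest in Stmn2+ cells. R26P26 exceeded R26P87 by 3.92-fold in Sox2+ cells (3.65 to 4.21), by 15.0-fold in Sox9+ cells (13.5 to 16.8) and by 1.59-fold in Stmn2+ cells (1.14 to 2.26). Between R26P27 and R26P87 the Stmn2+ ratio was 1.22, with an interval of 0.877 to 1.74. At equal depth Meis2 was seen in 6.19% of Sox2+, 1.75% of Sox9+ and 6.45% of Stmn2+ cells of R26P87, against 13.7 to 24.1% in the other tumors. The Stmn2+ level of R26P87 rested on 45 UMIs in 5 of 66 cells, 28 of them in a single cell. A smaller tumor difference in Stmn2+ cells is therefore not shown.

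Ebf1, a helix-loop-helix factor at chr11:44617317-45008091 on the plus strand, followed Meis2 in the progenitor states and parted from it in the third. Sox2+ cells held 86.4, 85.4 and 29.3 CPM, Sox9+ cells 92.7, 102 and 7.78, and Stmn2+ cells 196, 136 and 223. R26P87 was the low tumor in Sox2+ and Sox9+ cells but not in Stmn2+ cells. R26P27 exceeded R26P87 by 2.91-fold in Sox2+ (2.61 to 3.25) and 13.1-fold in Sox9+ cells (11.4 to 15.2), and the Stmn2+ ratio was 0.611 (0.481 to 0.780). Between R26P26 and R26P87 the Stmn2+ ratio was 0.880, with an interval of 0.696 to 1.12 that included equality. The 107 Ebf1 UMIs in Stmn2+ cells of R26P87 came from 9 cells, with up to 30 in a cell, and at equal depth 19.4% of those cells were positive, against 23.0 and 15.2% in R26P26 and R26P27. Ebf1 is also a gene of the vessel wall. It stood at 813 to 1256 in mural and 166 to 292 in endothelial cells of these tumors, and in Stmn2+ cells of R26P87 the 9 mural markers summed to 93.7 CPM, with 5 of the 9 detected, against 7.003 and 36.9 in the other tumors. The part of mural RNA in that level was not tested.

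**Figure D1:**
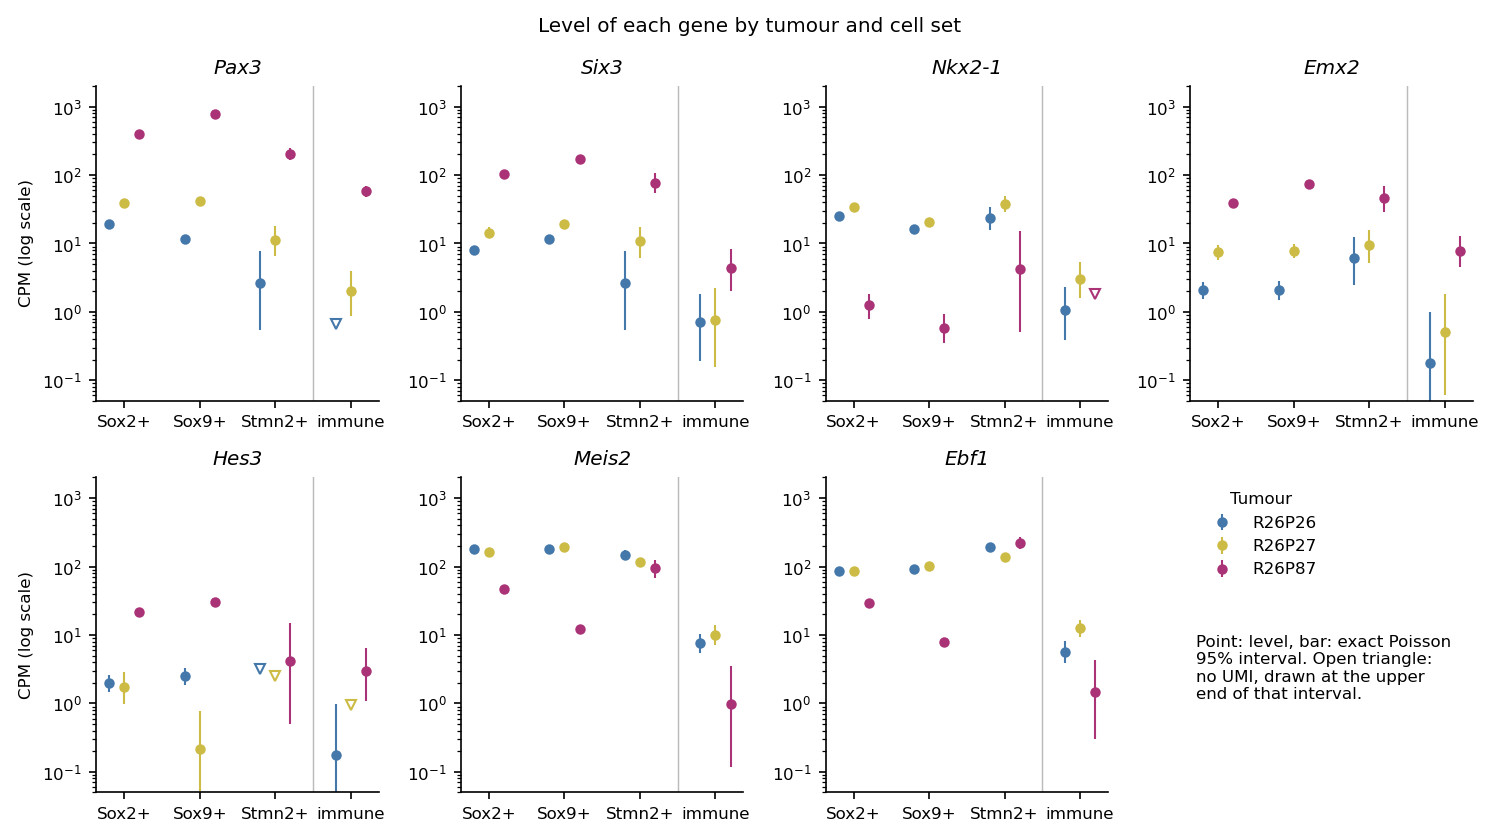
CPM on a log axis for each gene in Sox2+, Sox9+, Stmn2+ and immune cells, with 1 point per tumor and its exact 95% Poisson interval, and open triangles for sets with no UMI. Pax3, Six3, Emx2 and Hes3 were highest in R26P87 in Sox2+ and Sox9+ cells, and Nkx2-1, Meis2 and Ebf1 were lowest there. In Stmn2+ cells the tumors came close together for Meis2 and Ebf1, with levels of R26P87 that rest on few cells.

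A single reading across the states used a 4-fold distance between the highest and the lowest tumor, with at least 10 UMIs in the highest and counts under 3 set to 3. Pax3, Six3, Nkx2-1 and Emx2, 4 of the 7 genes, passed it in all 3 states with the same tumor highest, as did 1.89% of the 10589 genes that could be evaluated. Hes3 passed it in Sox2+ and Sox9+ cells. Meis2 and Ebf1 passed it in Sox9+ cells alone. In single states the limit was passed by 9.72% of all genes in Sox2+, 13.1% in Sox9+ and 8% in Stmn2+ cells. As the genes were chosen for this contrast, nothing is read from their count. When all cells were thinned to 2000 UMIs, 2 of the 7 genes, Pax3 and Six3, passed in all 3 states. Nkx2-1 and Emx2 then passed in Sox2+ and Sox9+ cells but not in Stmn2+ cells, where R26P87 was left with 0 UMIs of Nkx2-1 and 3 of Emx2, so at equal depth a difference in all states was not shown for them.

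**Figure D2:**
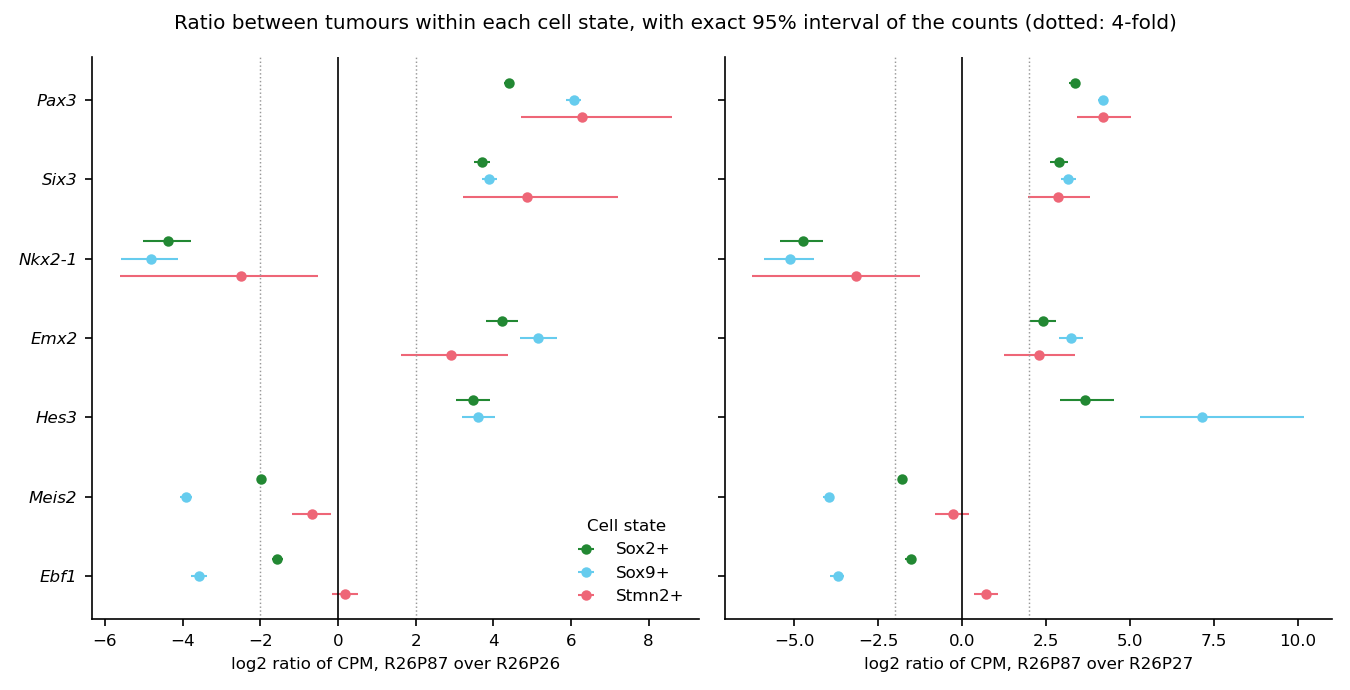
Log2 ratio of R26P87 to R26P26 (left) and to R26P27 (right) in Sox2+, Sox9+ and Stmn2+ cells, with the exact 95% interval of the ratio and dotted lines at 4-fold. For Pax3, Six3, Emx2 and Nkx2-1 the 3 states lie on the same side of 0. The Stmn2+ points of Meis2 and Ebf1 lie near 0, apart from the Sox9+ points, and rest on few cells of R26P87. Hes3 has no Stmn2+ point because 2 tumors had no UMI.

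The genes were chosen for differences between tumors, with earlier results of these data known. Differences between the states of the same tumors were tested with edgeR's quasi-likelihood test on the 9 sums of state and tumor, with the tumor as a block and Benjamini-Hochberg adjustment over 14431 genes. Between Stmn2+ and Sox2+ cells 2 of the 7 genes passed an adjusted p of 0.05, both lower in Stmn2+ cells, and 18.2% of all genes did (8.77% lower). Pax3 was lower by a log2 difference of -1.78 (SE 0.37, adjusted p = 0.0131), in 3 of 3 tumors, and Six3 by -0.76 (SE 0.19, adjusted p = 0.0247), also in 3 of 3. The same genes passed between Stmn2+ and Sox9+ cells, where 17.8% of all genes did (8.74% lower), with -1.93 for Pax3 (SE 0.36, adjusted p = 0.00856) and -1.33 for Six3 (SE 0.18, adjusted p = 0.0022). Within R26P87 the Stmn2+ level of Pax3 was 0.511 times the Sox2+ level (0.415 to 0.623) and 0.269 times the Sox9+ level (0.218 to 0.327). For Six3 in R26P87 these ratios were 0.733 (0.514 to 1.01) and 0.450 (0.316 to 0.621), and in R26P27 0.745 (0.413 to 1.26) and 0.559 (0.313 to 0.934), so within these tumors the interval against Sox2+ cells included equality. At equal depth the share of Stmn2+ cells with a Six3 UMI was 16.1% in R26P87 (5 of 31 cells, 5.45 to 33.7%) and 2.37% in R26P27 (5 of 211 cells, 0.774 to 5.44%), against 14.5 and 2.21% of Sox2+ cells, so a lower share was not detectable. For Pax3 the share in R26P87 was 38.7% of Stmn2+ cells (12 of 31 cells, 21.9 to 57.8%) and 39.0% of Sox2+ cells, and in R26P27 it was 0.474% (1 of 211 cells, 0.0120 to 2.61%) and 4.97%.

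The Pax3 and Six3 differences of Stmn2+ cells kept their direction and about their size when a tumor was left out, while the calls did not all hold. Between Stmn2+ and Sox2+ cells they were -2.25 to -1.54 for Pax3 and -0.90 to -0.67 for Six3. Without R26P26 or without R26P27 neither gene passed between Stmn2+ and Sox2+ cells (adjusted p = 0.0605 and 0.147 for Pax3, 0.130 and 0.117 for Six3), and without R26P87 Pax3 did (adjusted p = 0.000739) and Six3 did not (0.0869). Between Stmn2+ and Sox9+ cells Six3 passed with each tumor left out (edgeR adjusted p = 0.00956 to 0.0428), and Pax3 did not without R26P27 (0.113). When cells were thinned to 2000 UMIs, the Six3 differences were -0.21 and -0.26 and did not pass (edgeR adjusted p = 0.768 and 0.698), while those of Pax3 did.

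Between Sox9+ and Sox2+ cells none of the 7 genes passed the edgeR test, and 0.215% of all genes did (0.201% higher and 0.0139% lower). DESeq2 also gave 0 of 7, and at an unadjusted p of 0.05 edgeR gave 2. Six3 was higher in Sox9+ cells in 3 of 3 tumors, with a log2 difference of 0.58 (SE 0.11, adjusted p = 0.128), and Nkx2-1 lower in 3 of 3, with -0.72 (SE 0.17, adjusted p = 0.187). Without R26P87, where Nkx2-1 was near background, its difference was -0.66 and passed (edgeR adjusted p = 0.00311).

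Nkx2-1 did not pass between Stmn2+ and Sox9+ cells (0.69, SE 0.22, adjusted p = 0.0604) with the 3 tumors, and did without R26P87 (0.61, adjusted p = 0.0229). Hes3 had large differences with wide errors in Stmn2+ cells, of -3.17 (SE 1.05) against Sox2+ and -3.29 (SE 1.03) against Sox9+ cells, and did not pass (edgeR adjusted p = 0.0695 and 0.0589). Of 15 alternative settings, it passed in 2 against Sox2+ and in 3 against Sox9+ cells. Emx2 passed in no contrast, with edgeR adjusted p of 0.592 to 0.721.

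For Meis2 the direction, and for Ebf1 the size, of the Stmn2+ difference was not the same in the 3 tumors. The ratio of the Stmn2+ to the Sox9+ level of Meis2 was 0.820 (0.699 to 0.957) in R26P26 and 0.604 (0.513 to 0.707) in R26P27, but 7.76 (5.56 to 10.6) in R26P87. For Ebf1 the ratio was 2.11 in R26P26, 1.33 in R26P27 and 28.6 (22.6 to 36.1) in R26P87. The R26P87 ratios rest on the few Stmn2+ cells given above, 5 with Meis2 and 9 with Ebf1 of 66, and the intervals cover counting error only and not the spread between cells. Over the 3 tumors neither gene passed in these contrasts (for Stmn2+ against Sox9+, 0.08 for Meis2 with SE 0.53 and 1.67 for Ebf1 with SE 0.65, edgeR adjusted p = 0.952 and 0.113). Without R26P87, Meis2 was lower in Stmn2+ than in Sox9+ cells (-0.62, edgeR adjusted p = 0.00343) and than in Sox2+ cells (-0.51, adjusted p = 0.0116). Ebf1 was then higher in Stmn2+ cells (0.64 against Sox9+ and 0.83 against Sox2+ cells, edgeR adjusted p = 0.00599 and 0.0012). R26P87 decided these values, and the difference between tumors was not itself tested.

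**Figure D3:**
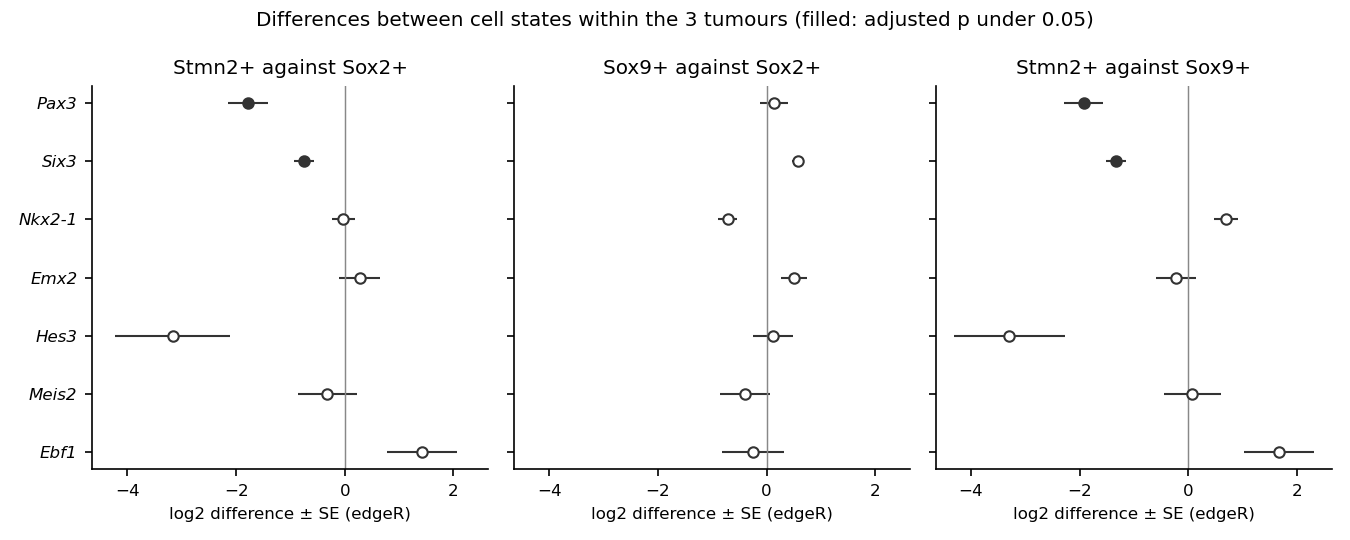
Log2 difference with its standard error for each gene in 3 contrasts between states, from edgeR with the tumor as a block, with filled points for an adjusted p under 0.05. Pax3 and Six3 were lower in Stmn2+ cells than in either other state, no gene passed between Sox9+ and Sox2+ cells, and Meis2 and Ebf1 had wide errors.

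The genes were also read in the same cells, over the cells of the 3 states with at least 2000 UMIs, each thinned to 2000. In R26P87 (2302 cells) Six3 was seen in 24.3% of the 1274 cells with Pax3 and in 12.7% of those without, Emx2 in 13.3 and 6.42%, and Hes3 in 6.04 and 2.43%. Meis2 went the other way, with 1.02 against 6.91%, as did Ebf1, with 0.863 against 4.57%. Meis2 and Ebf1 met in the same cells, since Meis2 was seen in 43.1% of the 58 cells with Ebf1 (interval 30.2 to 56.8) and in 2.63% of those without. In the other tumors this last relation was weak, with Meis2 in 22.6 and 23.2% of cells with and without Ebf1 in R26P26 and in 24.6 and 20.1% in R26P27. Cells of a tumor are not replicates, and no test was made.

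Meis2 and Ebf1 UMIs of R26P87 were thus gathered in few cells, apart from most Pax3 UMIs. A split made after this was seen, with no test, used the UMIs left at 2000 per cell. It set cells with a Pax3 UMI and none of Meis2 or Ebf1 apart from cells with Meis2 or Ebf1 and no Pax3. At full depth these sets were not free of the other genes. Meis2 stood at 89.9 and 103 CPM in the Pax3 cells of R26P26 and R26P27. Pax3 stood at 20.2 CPM in the Meis2 or Ebf1 cells of R26P87. R26P87 held 1251 of the first kind, 54.3% of its cells (52.3 to 56.4), and 94 of the second, 4.08% (3.31 to 4.97). In R26P26 they were 52 cells (1.23%) and 1358 cells (32.2%), and in R26P27 41 cells (1.94%) and 608 cells (28.8%). Cells without Pax3, Meis2 or Ebf1 at that depth were 40.6% of R26P87, 66.1% of R26P26 and 67.0% of R26P27. The Pax3 cells of R26P87 were 70.3% Sox9+, and its Meis2 or Ebf1 cells were 72.3% Sox2+ and 25.5% Sox9+. Of all 2302 cells of R26P87 read, 1318 were Sox9+ and 953 Sox2+. The levels that follow are not matched by state.

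The levels of the other genes in these cells are a description, since Six3, Emx2 and Hes3 had already been seen more often with Pax3 in the same cells of R26P87. Six3 was at 182 CPM in the Pax3 cells and at 8.97 (5.13 to 14.6) in the Meis2 or Ebf1 cells, Hes3 at 36.1 and 2.24, and Emx2 at 77.5 and 22.4. Nkx2-1 was at 0.0716 (2 UMIs) in the Pax3 cells and at 9.54 (5.55 to 15.3) in the Meis2 or Ebf1 cells. Otx1, a gene of forebrain and midbrain, stood at 0.823 and 21.3. In Meis2 or Ebf1 cells of R26P26 and R26P27, Six3 was at 11.6 and 19.8, Otx1 at 41.0 and 66.7, Nkx2-1 at 17.2 and 24.3 and Hes3 at 0.749 and 0.556 (3 UMIs). Emx2 was at 2.18 and 9.07 in them, below the 22.4 (16.0 to 30.5) of the Meis2 or Ebf1 cells of R26P87. Cells of R26P26 and R26P27 without Pax3, Meis2 or Ebf1 held Nkx2-1 at 24.6 and 31.2 and Otx1 at 43.5 and 69.8. In those tumors the levels of Nkx2-1 and Otx1 were thus not particular to the Meis2 or Ebf1 cells. Smarcb1 was low in both kinds of cells of R26P87, at 0.573 (0.327 to 0.930) in the Pax3 cells and at 1.68 (3 UMIs, 0.347 to 4.92) in the Meis2 or Ebf1 cells, against an interval of 15.2 to 28.3 in its immune cells.

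In the rare Pax3 cells of R26P26 some of these genes differed in the direction seen in R26P87. With 52 cells, they held Six3 at 44.1 (29.1 to 64.2) against 11.6 in the Meis2 or Ebf1 cells of that tumor, Hes3 at 21.2 (11.3 to 36.3) against 0.749, Plagl1 at 129 against 28.1, Otx1 at 11.4 (7 UMIs) against 41.0 and Nkx2-1 at 1.63 (1 UMI) against 17.2, while Emx2, at 1.63 (1 UMI) against 2.18, did not. The 41 Pax3 cells of R26P27 differed in that direction in Plagl1, at 156 (120 to 199) against 67.0, and in Nkx2-1, at 4.80 (2 UMIs, 0.582 to 17.3) against 24.3. Their intervals for Six3 (16.8, 6.76 to 34.6), Emx2 (7.20, 1.49 to 21.05) and Otx1 (50.4, 31.2 to 77.1) held the levels of the other cells, at 19.8, 9.07 and 66.7, and no Hes3 UMI was counted. Meis2 was seen in 46.6% of its 88 cells with Pax3 and in 19.6% of the others.

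**Figure D4:**
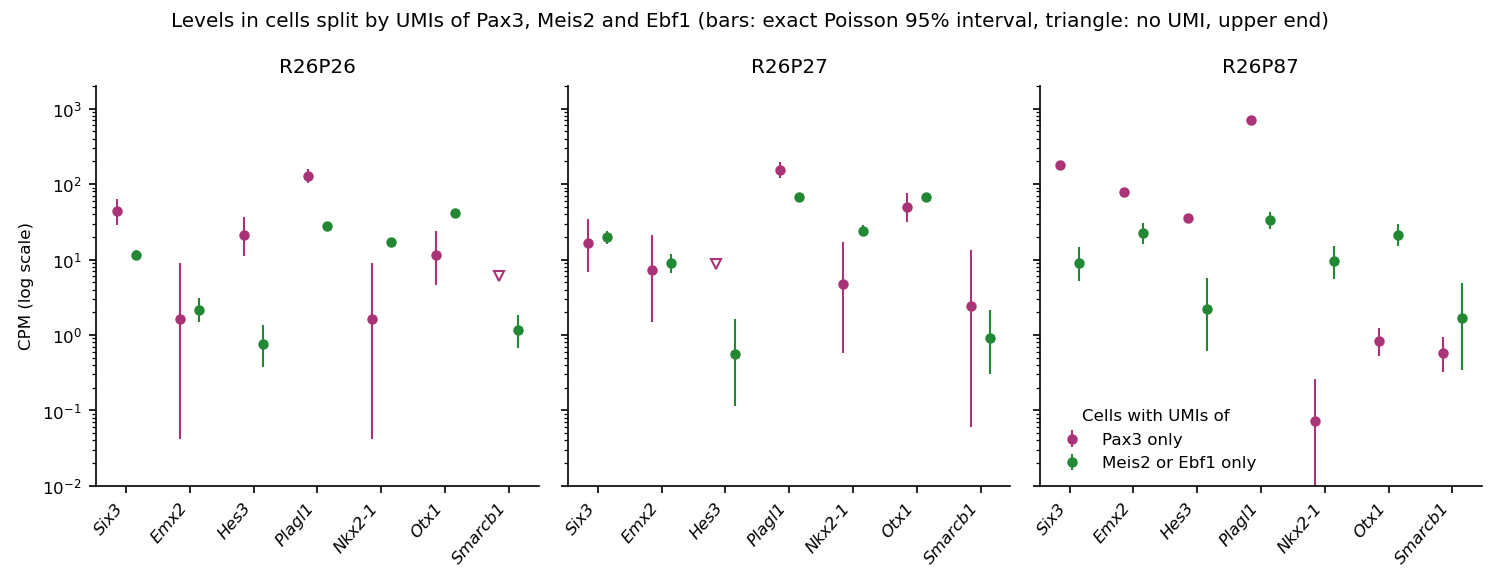
CPM on a log axis in cells with Pax3 only and in cells with Meis2 or Ebf1 only, in each tumor, with exact 95% Poisson intervals. In R26P87 the Pax3 cells held more Six3, Emx2, Hes3 and Plagl1 and less Nkx2-1 and Otx1 than the Meis2 or Ebf1 cells of that tumor. Cells without Pax3, Meis2 or Ebf1 are not drawn. Smarcb1 was low in both.

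The genes with the most similar pattern were sought by Pearson correlation of log2 levels, with 1 added to each, over the 9 sums of state and tumor, among 9350 genes with a mean of at least 10 (for Hes3 9351). Sums of one tumor share their library, so the values only rank genes. For Pax3 they were Canx (r = 0.985), Plagl1 (0.985) and Six3 (0.984), and for Six3 they were Plagl1 (0.992), Btaf1 (0.990) and Pax3 (0.984). Plagl1, a zinc finger gene expressed from the paternal allele, rose from 20.8 in Sox2+ cells of R26P26 to 337 in those of R26P87, whereas Canx, an endoplasmic reticulum chaperone, moved from 253 to 319 only. For Emx2 they included Nrp2 (0.980) and Akap7 (0.974), and for Hes3 they were L3hypdh (0.985), Prr18 (0.974) and Rpl13a (0.971). Nrp2, a semaphorin receptor, went from 49.0 to 334 in the same cells.

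For Nkx2-1 the nearest genes were Eapp (0.991), Zfp266 (0.988) and Zfp207 (0.981), each of which moved little, as Eapp did from 80.0 to 57.0 in Sox2+ cells of R26P26 and R26P87. For Meis2 they included Sh3rf1 (0.975) and Sox4 (0.973). Sox4, a gene of early neurons and progenitors, was at 1390, 1724 and 299 in Sox9+ cells of the 3 tumors. For Ebf1 they were Ablim1 (0.976), the sodium channel gene Scn3a (0.971) and Gabarapl1 (0.964).

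Among 100 other regional genes from lists of family relatives and of forebrain, midbrain, hindbrain, dorsal and ventral genes, 84 could be evaluated, and 20 were past 4-fold between tumors in at least 2 states with the same tumor highest, as were 5.7% of 16088 genes. The highest tumor was R26P27 for 9 of them, R26P87 for 7 and R26P26 for 4. Among all 917 genes past the same limit these numbers were 588, 250 and 79, so R26P27 was the most frequent there too. By list, 3 of 15 family relatives, 3 of 18 telencephalic, 5 of 14 diencephalic and hypothalamic, 3 of 12 midbrain, 3 of 12 hindbrain and spinal cord, 3 of 10 dorsal and 2 of 9 ventral genes were among them. The median fold between the highest and the lowest tumor, over the states summed, was 3.13 for the list genes and 1.52 for all genes. The lists were chosen with earlier results of these data known, and their genes were not matched for level with the others. Nothing is therefore read from these counts and folds.

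The 10 with the largest fold included Sp8, Barhl2, Hoxc8, Eomes, Pax2, Otx1, Foxa2, Ebf3 and Sim1, and among those named R26P87 was the highest tumor for Hoxc8 and Pax2 only. Otx1 was at 43.8, 63.6 and 6.05 in Sox2+ cells of R26P26, R26P27 and R26P87 and at 40.0, 73.2 and 1.33 in Sox9+ cells. Foxa2, a floor plate factor, was at 39.0, 20.2 and 4.09 in Sox2+ and 28.2, 16.1 and 0.488 in Sox9+ cells. Both thus shared the low tumor with Nkx2-1. Hoxc8, a Hox gene of the spinal cord, was at 0.845, 0.115 and 13.2 in Sox2+ cells, and Pax2, a gene of the midbrain-hindbrain boundary, at 0.115, 0.231 and 8.27. Their Sox9+ levels in R26P87 were lower, at 2.47 and 0.944, unlike those of Pax3, Six3 and Emx2. Sp8, Barhl2, Eomes, Ebf3 and Sim1 were low, at up to 25.5 in any state.

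Between Stmn2+ and Sox2+ cells, 11 of the 79 list genes tested were higher and 14 lower (edgeR), against 9.46 and 8.77% of all genes, and between Stmn2+ and Sox9+ cells 11 were higher and 16 lower, against 9.1 and 8.74%. The family relatives divided by gene. Ebf3 (1.94, SE 0.35, adjusted p = 0.00863) and Ebf2 (3.66, SE 0.79, adjusted p = 0.0156) passed as higher in Stmn2+ than in Sox2+ cells, while Ebf1 did not. Hes1 (-1.21, SE 0.13, adjusted p = 0.00114) and Hes5 (-1.998, SE 0.38, adjusted p = 0.00954), which hold cells in the progenitor state, passed as lower, in the direction of the Hes3 value, while Hes6 (-0.01, adjusted p = 0.977) and Ebf4 (0.61, adjusted p = 0.527) did not pass. Of the 10 dorsal genes 6 were lower in Stmn2+ than in Sox9+ cells and none was higher.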

How the data were processed

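Single-cell RNA sequencing libraries of 3 tumors were used. The deposited matrices hold raw UMI counts of genes in barcodes that each have at least 500 UMIs. The authors used Cell Ranger 3.1.0 with mm10 (submitters' processing notes) and did not normalize them. The matrices hold no rows without a gene name, and 30934 of 31053 gene IDs were in GENCODE M21. Non-tumor cells, which the study filtered out, were kept, since immune cells give the background.

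Barcodes under the 5th percentile of genes (384, 407 and 367) or with a mitochondrial share more than 3 scaled median absolute deviations over the median (limits 16.6, 20 and 15.4%) were removed. Scrublet (scanpy 1.11.5) marked at most 1 cell with its own threshold, and a rate set at 0.8% per 1000 cells replaced it (682, 364 and 152 removed). Cells with at least 3 markers and 0.5% of UMIs of the immune, endothelial, mural or oligodendrocyte list left the states. Cells with Stmn2 and Sox2 or Sox9 (557, 613 and 166) and with none of the 3 genes (2142, 2322 and 1487) entered no state. Free RNA was not corrected for.

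The counts were summed per tumor and state, with at least 20 cells per sum. CPM, ratios and exact intervals were computed with scipy 1.17.1. State contrasts used edgeR 4.0.16 (R 4.3.3; TMM, filterByExpr, tumor as block, since the sums of a tumor share the animal). DESeq2 1.42.0 was an alternative. The fit was tested on simulated data. Nothing says more of replication than 1 tumor per mouse, and p-values measure the spread over 3 tumors. The members and lists were chosen with earlier results of these data known. Named genes are the 7 members, the 3 genes closest to each, and the 10 list genes with the largest fold, with Hes1, Hes5, Hes6, Ebf2, Ebf4 and the genes of the split named after their values were seen. Some genes that this rule picks are not reported here. Alternatives changed the gates, filters, doublet removal, depth, normalization, tool, block and tumors.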

Additional observations from a re-analysis of the deposited data

How the results depend on the processing

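The number of the 7 genes that passed between Stmn2+ and Sox2+ cells was 2, and 1 with 2 UMIs of the state gene, 1 with overlapping states, 0 with no replicate block (tumor not in the fit), and 0 to 3 when a tumor was left out. Between Stmn2+ and Sox9+ cells it was 2, and 4 with no low count filter, 0 with no replicate block and 2 to 5 when a tumor was left out. Between Sox9+ and Sox2+ cells it was 0, and 1 thinned to 2000 UMIs, 1 with no low count filter and 0 to 1 when a tumor was left out. The number past 4-fold between tumors in all 3 states was 4, and 2 thinned to 2000 UMIs. The causes were not tested. Of the 21 log2 ratios between the highest and the lowest tumor, 14 left their counting interval when cells were thinned, 9 with overlapping states and 6 with 2 UMIs of the state gene, as did 36, 25 and 21 of the 63 levels, and no ratio past 4-fold turned direction.

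Over 15 alternatives, Pax3 passed in 12 (Stmn2+ against Sox2+, adjusted p from 3.51e-05 to 0.741) and 13 (Stmn2+ against Sox9+, 1.24e-05 to 0.582), and Six3 in 7 (0.0100 to 0.789) and 13 (0.000104 to 0.698), with edgeR or DESeq2 and no change of direction. Directions turned in the values below, which are log2 differences and, but for 1, did not pass. Stmn2+ against Sox2+ was -0.03 for Nkx2-1 and became 0.0279 (2 UMIs), 0.096 (overlapping states), 0.54 (thinned), 0.00618 (no doublet removal), 0.000357 (marker share 0.25%), 0.017 (other neural types removed), 0.0041 (RLE), 0.0164 (DESeq2), 0.12 (no replicate block) and -0.11 to 0.12 (a tumor left out). It was 0.27 for Emx2 and became -0.19 (2 UMIs), -0.0805 (overlapping states) and -0.0675 (no replicate block), and for Meis2 it was -0.32 and became 0.0652 (DESeq2). Sox9+ against Sox2+ was 0.14 for Pax3 and became -0.00167 (overlapping states) and -0.31 to 0.54 (a tumor left out). It was 0.12 for Hes3 and became -0.063 (2 UMIs), -0.13 (cells failing both filters removed), -0.31 (DESeq2) and -0.30 to 0.44 (a tumor left out). It was -0.40 for Meis2 and became -0.78 to 0.12 (a tumor left out), and for Ebf1 it was -0.24 and became 0.13 (thinned), 0.0128 (no replicate block) and -0.61 to 0.19 (a tumor left out). Stmn2+ against Sox9+ was -0.23 for Emx2 and became 0.11 (thinned), 0.050 (DESeq2) and -0.54 to 0.54 (a tumor left out). It was 0.08 for Meis2 and became -0.34 (2 UMIs), -0.0212 (overlapping states), -0.34 (thinned), -0.21 (no replicate block) and -0.62 to 0.74 (a tumor left out), where -0.62, without R26P87, passed (edgeR adjusted p = 0.00343). The Stmn2+ cells are limited by depth and number, with 148 of 268, 211 of 549 and 31 of 66 cells of R26P26, R26P27 and R26P87 at 2000 UMIs or more.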
